A study of Mus musculus with 4 samples.

Results

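The genes described here are 29 genes of cholesterol metabolism, taken by symbol from the 57126 genes counted in each of 4 mouse cortex libraries. They comprise 19 enzymes of synthesis (Acat2, Hmgcs1, Mvk, Pmvk, Mvd, Idi1, Fdps, Ggps1, Fdft1, Sqle, Lss, Cyp51, Tm7sf2, Msmo1, Nsdhl, Hsd17b7, Ebp, Sc5d and Dhcr7), 5 regulators (Srebf1, Srebf2, Scap, Insig1 and Insig2), 3 proteins that move cholesterol inside the cell (Npc1, Npc2 and Stard4) and 2 exporters (Abca1 and Abcg1). The symbols were chosen for what the genes do, but with earlier results of these data known, as the processing section sets out. They are therefore no independent support for those results. All 29 reached 30 counts over both libraries in every comparison over whole libraries. Cerebral cortex was taken from 1 wild-type mouse and 1 mouse labelled TSK-KO (lacking Tsku) on embryonic day 14.5, written E14.5 here, and from 1 mouse of each kind on the day of birth (P0). Tsku encodes Tsukushi, a secreted proteoglycan, and the series asks how its loss shifts the formation of neurons and glia. The tissue was dissociated with trypsin and the RNA of single cells was counted. The labels give genotype as WT or KO only, with no strain, no allele and no treatment. With 1 animal per group there is no spread between animals, so no test and no p-value is given. Intervals are 95% intervals on counts, they cover counting error only, and a difference between 2 libraries is not thereby a difference between genotypes or ages.

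Cholesterol is made from acetyl-CoA through mevalonate and the isoprenoid farnesyl diphosphate to squalene, which is closed into lanosterol and then modified step by step. The transcription factor SREBP2, encoded by Srebf2, drives nearly every gene of this chain. Its escort, encoded by Scap, releases it from the endoplasmic reticulum when sterols are scarce, and the INSIG proteins hold both back when sterols are plentiful. Oxidised sterols act through the liver X receptors, which drive the exporters Abca1 and Abcg1. The brain makes its own cholesterol, because lipoproteins of the blood do not cross into it. Astrocytes are known as a main source after birth and pass cholesterol to neurons on particles that carry apolipoprotein E.

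The stretch before the start site is shown for 5 genes on which the results turn, the exporter Abca1 among them, with matches to CCAAT and a sterol element core. RefSeq windows of the build GRCm38.p6, which is not the build of the count files (GRCm39), were at hand for 23 of the 29 genes. They run from 250 bases before to 50 after the start, 300 bases in all, and the 250 bases before the start are printed 5′ to 3′ in the direction of transcription. Capitals mark CCAAT on either strand (ATTGG where it lies on the other strand) and, in Hmgcs1, the sterol element core CACCCCAC. The stretches are Hmgcs1 chr13:119690101-119690350, plus strand; Idi1 chr13:8885356-8885605, plus strand; Msmo1 chr8:64733579-64733828, minus strand; Insig1 chr5:28071162-28071411, plus strand; and Abca1 chr4:53159896-53160145, minus strand.
Hmgcs1: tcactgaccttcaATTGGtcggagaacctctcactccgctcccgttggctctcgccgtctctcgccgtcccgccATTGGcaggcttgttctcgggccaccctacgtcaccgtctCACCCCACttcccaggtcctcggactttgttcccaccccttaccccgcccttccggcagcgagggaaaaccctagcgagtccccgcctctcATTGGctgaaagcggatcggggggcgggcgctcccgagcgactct
Idi1: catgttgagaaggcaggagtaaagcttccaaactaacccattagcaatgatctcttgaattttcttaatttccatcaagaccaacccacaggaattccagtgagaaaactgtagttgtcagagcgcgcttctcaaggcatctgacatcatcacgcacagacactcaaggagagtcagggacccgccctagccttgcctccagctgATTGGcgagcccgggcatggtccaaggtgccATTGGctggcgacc
Msmo1: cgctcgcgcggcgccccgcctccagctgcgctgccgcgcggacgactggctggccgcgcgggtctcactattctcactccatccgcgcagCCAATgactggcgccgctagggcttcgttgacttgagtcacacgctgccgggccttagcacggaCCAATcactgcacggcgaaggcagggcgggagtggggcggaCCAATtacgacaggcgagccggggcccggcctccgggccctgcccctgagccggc
Insig1: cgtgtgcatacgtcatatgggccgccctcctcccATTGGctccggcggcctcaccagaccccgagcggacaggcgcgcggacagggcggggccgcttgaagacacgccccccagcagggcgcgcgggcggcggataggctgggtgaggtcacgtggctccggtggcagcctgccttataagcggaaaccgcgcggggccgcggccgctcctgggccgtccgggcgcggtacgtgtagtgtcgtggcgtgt
Abca1: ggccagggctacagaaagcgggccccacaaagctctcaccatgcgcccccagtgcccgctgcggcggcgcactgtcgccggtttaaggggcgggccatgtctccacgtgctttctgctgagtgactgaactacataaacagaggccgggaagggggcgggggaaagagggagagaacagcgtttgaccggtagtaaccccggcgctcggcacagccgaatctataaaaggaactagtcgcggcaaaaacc

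In Hmgcs1, which encodes HMG-CoA synthase, the sterol core lies with its first base 136 bases before the start, between CCAAT matches at 176 and 45 bases before it, and a further match lies 237 bases before it. Idi1, the isopentenyl diphosphate isomerase, held CCAAT matches 45 and 14 bases before the start, and Msmo1, a sterol C4 demethylase component, held 3. Abca1 held no CCAAT match and 2 GC boxes (GGGCGG). Counted on both strands over the whole 300 bases, CCAAT occurred in 15 of the 16 synthesis genes with a window (93.8%) and in 41.1% of all 27025 genes with a window, a gene counting once if any of its windows held the motif. The GC box occurred in 14 of the 16 (87.5%) against 38.2% of all genes, and the sterol core in 2 of the 16, Acat2 and Hmgcs1 (12.5%), against 3.30%. The form ATCACGTGA, searched on both strands, occurred in 0 of the 16 and in 0.374% of all genes. No motif searched overlapped another in the printed capitals. A match describes these letters and is not a binding site, and a window without one says nothing about the factor.

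The libraries held 618 cells (E14.5 wild type), 4107 (E14.5 labelled knockout), 1044 (P0 wild type) and 1430 (P0 knockout) with 5584291, 14404051, 6025289 and 8812049 counts, and median counts per cell of 7316, 2829, 4806.5 and 5059. Tsku itself had 52 counts in E14.5 wild type, 74 in the library labelled E14.5 knockout, 42 in P0 wild type and 0 in P0 knockout, where a count of 0 allows up to 0.419 CPM (a gene's counts per 1000000 counts of the library or gate). Tsku counts in the library labelled E14.5 knockout go against its label, and directions drawn from that library are those of a label. The cells were sorted into gates by the number of distinct marker genes of each list seen at 1500 counts per cell. In the order above, 257, 1416, 432 and 433 cells were projection-neuron-like (Neurod2, Neurod6, Tbr1 and others), 99, 681, 130 and 116 inhibitory-neuron-like (Gad1, Gad2, Dlx1 and others), and 24, 99, 176 and 315 astrocyte-like (Aqp4, Gja1, Aldoc and others). At P0, 52 and 141 cells were oligodendrocyte-precursor-like. Of the cells of each library with at least 1500 counts, between 14.2% and 15.5% entered no gate. A further 1, 141, 1 and 1 cells had fewer counts and were not sorted. Each pair of libraries shared 0 to 2 cell barcodes. CPM values are taken from the summed counts of a library or a gate. CPM is not divided by transcript length, so levels are compared within a gene and never between genes.

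At birth the synthesis genes as a sum were highest in astrocyte-like cells in both libraries, above the neuronal, progenitor, radial glia and precursor gates. Their summed level was 3982 CPM in the astrocyte-like cells of P0 wild type and 1581 CPM in the other cells of that library, a log2 ratio of 1.33 (1.28 to 1.39). In P0 knockout it was 3696 against 1188 CPM, a log2 ratio of 1.64 (1.59 to 1.68). Among the projection-neuron-like, inhibitory-neuron-like, astrocyte-like and precursor-like gates, 15 of the 19 enzymes were highest in astrocyte-like cells in P0 wild type and 17 of 19 in P0 knockout. The share of all genes highest in each of these gates was not computed, so the counts have no background beside them. Levels in endothelial, microglia and fibroblast gates were not computed either. The exceptions in wild type were Ebp in inhibitory-neuron-like cells and Mvk, Ggps1 and Dhcr7 in precursor-like cells, and in the knockout Ggps1 in projection-neuron-like and Ebp in inhibitory-neuron-like cells. Hmgcs1 stood at 1353 CPM in the astrocyte-like cells of P0 wild type against 404 CPM in its other cells, and at 1311 against 275 CPM in P0 knockout. Precursor-like cells were in between, with a summed synthesis level of 2472 CPM in wild type and 2315 CPM in the knockout. Of these 4 gates, Abca1 was highest in astrocyte-like cells and Abcg1 in precursor-like cells in both libraries. In P0 wild type Abca1 was 185 CPM (161 to 211) in astrocyte-like cells. In intermediate-progenitor-like cells, outside these 4 gates, it was 180 CPM (128 to 246), an overlapping interval. In P0 knockout it was 220 and 134 CPM. Abcg1 in precursor-like cells of P0 wild type was 51.8 CPM (29.6 to 84.2) on 16 counts. That interval overlaps the one of projection-neuron-like cells, 30.9 CPM (24.1 to 38.9). In P0 knockout these gates had 85.9 and 45.8 CPM. All genes of a gate were counted in the cells the markers picked, and none of the 29 is a marker.

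**Figure D1:**
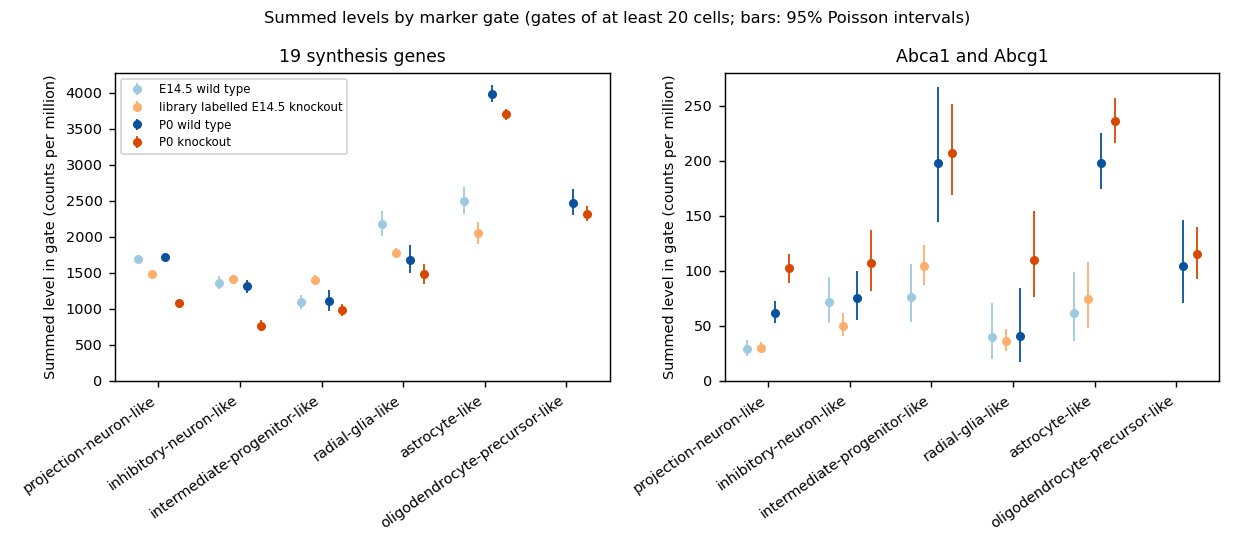
Summed CPM (vertical axes) of the 19 synthesis genes (left) and of Abca1 and Abcg1 (right) in each neuronal, progenitor, radial glia, astrocyte or precursor gate with at least 20 cells (horizontal axis), 1 point per library with its 95% Poisson interval. The astrocyte-like cells of both P0 libraries carry the highest synthesis sums, 3982 and 3696 CPM, and the inhibitory-neuron-like cells of P0 knockout the lowest, 764 CPM.

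Over all cells at P0, the enzymes as a group were slightly lower in the knockout and the exporters were higher. Summed synthesis counts were 1801 CPM in P0 knockout and 2047 CPM in P0 wild type, a log2 ratio of -0.18 (-0.22 to -0.15), while Abca1 and Abcg1 together were 198 against 123 CPM, a log2 ratio of 0.68 (0.56 to 0.81). Counting a gene as higher or lower when its log2 ratio was at least 0.5 in size, 0 of 19 enzymes were higher and 1 was lower, where 13.0% of the 13828 genes with at least 30 counts were higher and 5.87% were lower. The enzyme counted lower was Acat2, the cytosolic acetoacetyl-CoA thiolase at the head of the chain. The median of the 19 was -0.14 beside 0.05 over all genes. The intervals of 8 lay below 0 and those of 3, Tm7sf2, Nsdhl and Dhcr7, above 0, but the share of all genes with such intervals was not computed. These sums mix cell types whose shares differed: projection-neuron-like cells made up 41.4% of the cells of P0 wild type and 30.3% of P0 knockout, astrocyte-like cells 16.9% and 22.0%, and precursor-like cells 4.99% and 9.87%. In a sum over all cells, fewer cells of a type and less RNA per cell cannot be told apart, so the same comparison was made within gates.

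**Figure D2:**
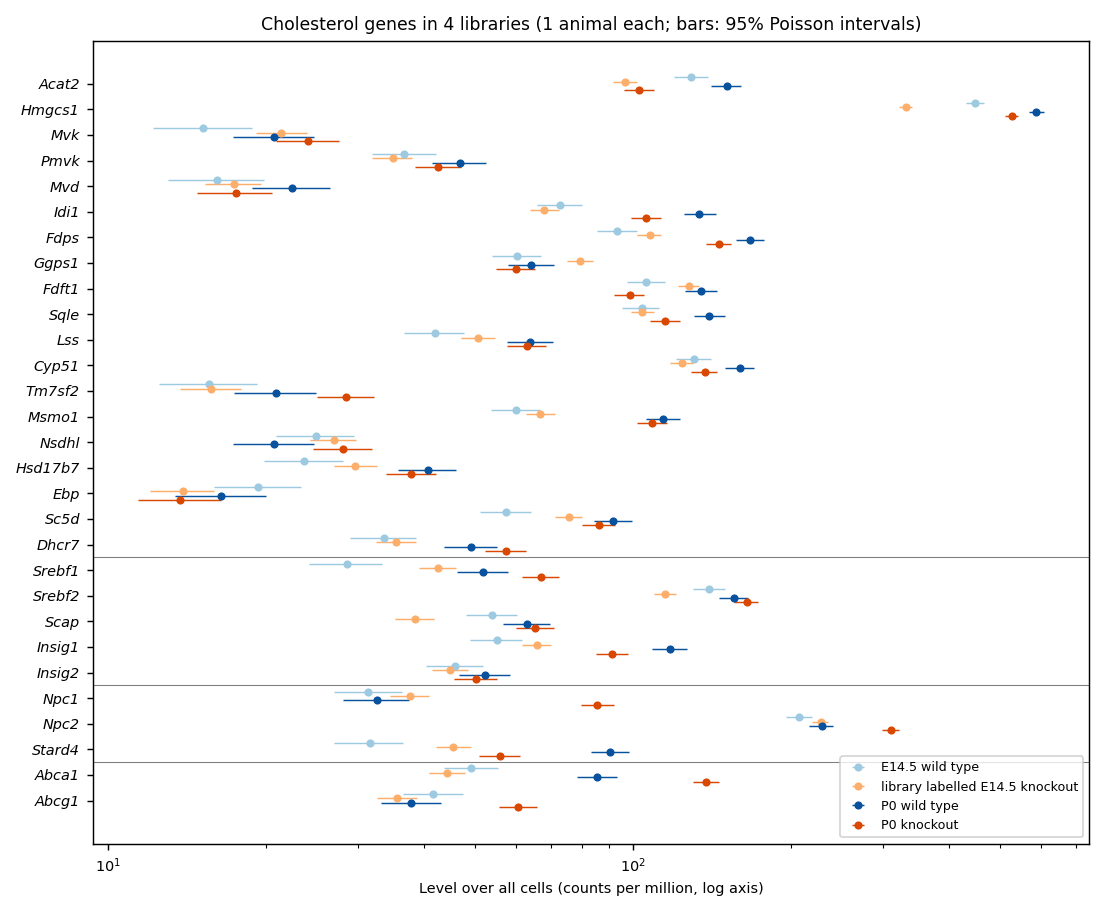
CPM over all cells (horizontal log axis) of the 29 genes (rows, split by role), 1 point per library with its 95% Poisson interval. Npc1 and Abca1 stand highest in P0 knockout (85.6 and 138 CPM), while Stard4, Acat2 and Insig1 are higher in P0 wild type than in P0 knockout.

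Within projection-neuron-like cells at P0, synthesis genes were lower in the knockout library. Their sum was 1072 CPM in P0 knockout and 1716 CPM in P0 wild type, a log2 ratio of -0.68 (-0.75 to -0.61), at similar depth (median 4841 and 4578 counts per cell). Of the 19 enzymes 9 were lower and 0 higher, against 8.21% and 8.25% of the 9993 genes tested in these cells, and the median was -0.47 beside 0.01 over all genes. The ratio lay between -0.76 and -0.58 under the other gate and depth settings, and the count between 7 and 12.

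Hmgcs1 was 480, 317, 462 and 212 CPM in the projection-neuron-like cells of E14.5 wild type, the library labelled E14.5 knockout, P0 wild type and P0 knockout. P0 knockout was thus the lowest of the 4, with a log2 ratio to P0 wild type of -1.12 (-1.28 to -0.97). Idi1 was 59.3, 42.2, 73.4 and 31.1 CPM in the same order, and its P0 ratio was -1.24 (-1.66 to -0.84). Msmo1 was 61.0, 55.2, 68.2 and 31.9 CPM, with a ratio of -1.10 (-1.51 to -0.69). These 3 enzymes, 1 at the entry to mevalonate, 1 in isoprenoid formation and 1 in sterol modification, were each at under 50% of the P0 wild-type level.

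Further enzymes were lower by less. Cyp51, the lanosterol demethylase, was 165, 126, 152 and 82.7 CPM (P0 ratio -0.87, interval -1.13 to -0.62). Fdft1, the squalene synthase, was 164, 179, 167 and 93.6 CPM (-0.84, -1.08 to -0.60). Sqle, the squalene epoxidase, was 125, 103, 116 and 68.8 CPM (-0.75, -1.04 to -0.46). For each of these the 3 other libraries lay above P0 knockout. Acat2 was 149, 101, 159 and 102 CPM, so that P0 knockout matched the library labelled E14.5 knockout and lay below both wild types (P0 ratio -0.65, -0.89 to -0.41). Mvd, the mevalonate diphosphate decarboxylase, was 22.2, 22.8, 18.3 and 10.5 CPM and rested on 42 and 25 counts at P0 (-0.80, -1.57 to -0.05). Ebp was also counted lower, at -0.81, with an interval of -1.92 to 0.24 that includes 0. Lss, the lanosterol synthase, and Sc5d, the lathosterol oxidase, were short of the 0.5 threshold at -0.47 (-0.84 to -0.10) and -0.32 (-0.62 to -0.02). The other 8, Mvk, Pmvk, Fdps, Ggps1, Tm7sf2, Nsdhl, Hsd17b7 and Dhcr7, had ratios from -0.37 to 0.21 and intervals that included 0. Over all cells these 8 and Ebp ranged from 13.7 to 146 CPM in P0 knockout.

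The 5 regulators summed to a log2 ratio of -0.25 (-0.39 to -0.11) in these cells, with Insig1 the lowest. Insig1, itself a target of SREBP2, was 64.1, 62.1, 88.2 and 47.4 CPM and lower in P0 knockout than in P0 wild type by a log2 ratio of -0.90 (-1.24 to -0.56). Insig2, its paralogue, was 63.9 and 65.9 CPM at P0, a ratio of 0.04 (-0.29 to 0.38), and 45.8, 44.9, 52.3 and 50.2 CPM over all cells of the 4 libraries. Srebf2 was 163, 123, 150 and 131 CPM (-0.20, -0.43 to 0.03), and Srebf1, which encodes the relative that drives fatty acid genes, was 15.3, 22.0, 22.2 and 21.0 CPM (-0.08, -0.67 to 0.51). Scap was 66.5 and 64.2 CPM at P0 (-0.05, -0.38 to 0.28). Insig1 was therefore the regulator that differed past its counting error at P0. The intervals of the other 4 include 0 and leave room for a ratio as low as -0.67, for Srebf1.

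Transport and export genes ran in different directions. Stard4, a carrier of sterol between membranes and a SREBP2 target, was 24.4, 26.4, 42.6 and 10.9 CPM in projection-neuron-like cells. It had the lowest log2 ratio at P0 of the 29 genes, -1.96 (-2.65 to -1.33). Npc1 and Npc2 pass cholesterol out of late endosomes and lysosomes. Npc1 was 25.7, 33.4, 22.6 and 47.0 CPM, higher in P0 knockout by 1.06 (0.57 to 1.56), and Npc2 was 174, 202, 142 and 171 CPM, a ratio of 0.27 (0.06 to 0.48). Abca1 was 6.10, 6.94, 30.9 and 55.8 CPM, low in both E14.5 libraries and higher in P0 knockout than in P0 wild type by 0.86 (0.43 to 1.29). Abcg1 was 23.1, 23.1, 30.9 and 45.8 CPM, with a ratio of 0.57 (0.12 to 1.02). Cells with counts of at least 2 of Nhlh2, Lhx9, Calb2 and Nrp2 are called the Nhlh2 type here. Full counts were used, Nhlh2 itself was not required, and whether these cells form a single neuron type was not tested. Without these cells the export sum ratio was 0.59 in place of 0.72 and the synthesis sum ratio -0.67.

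**Figure D3:**
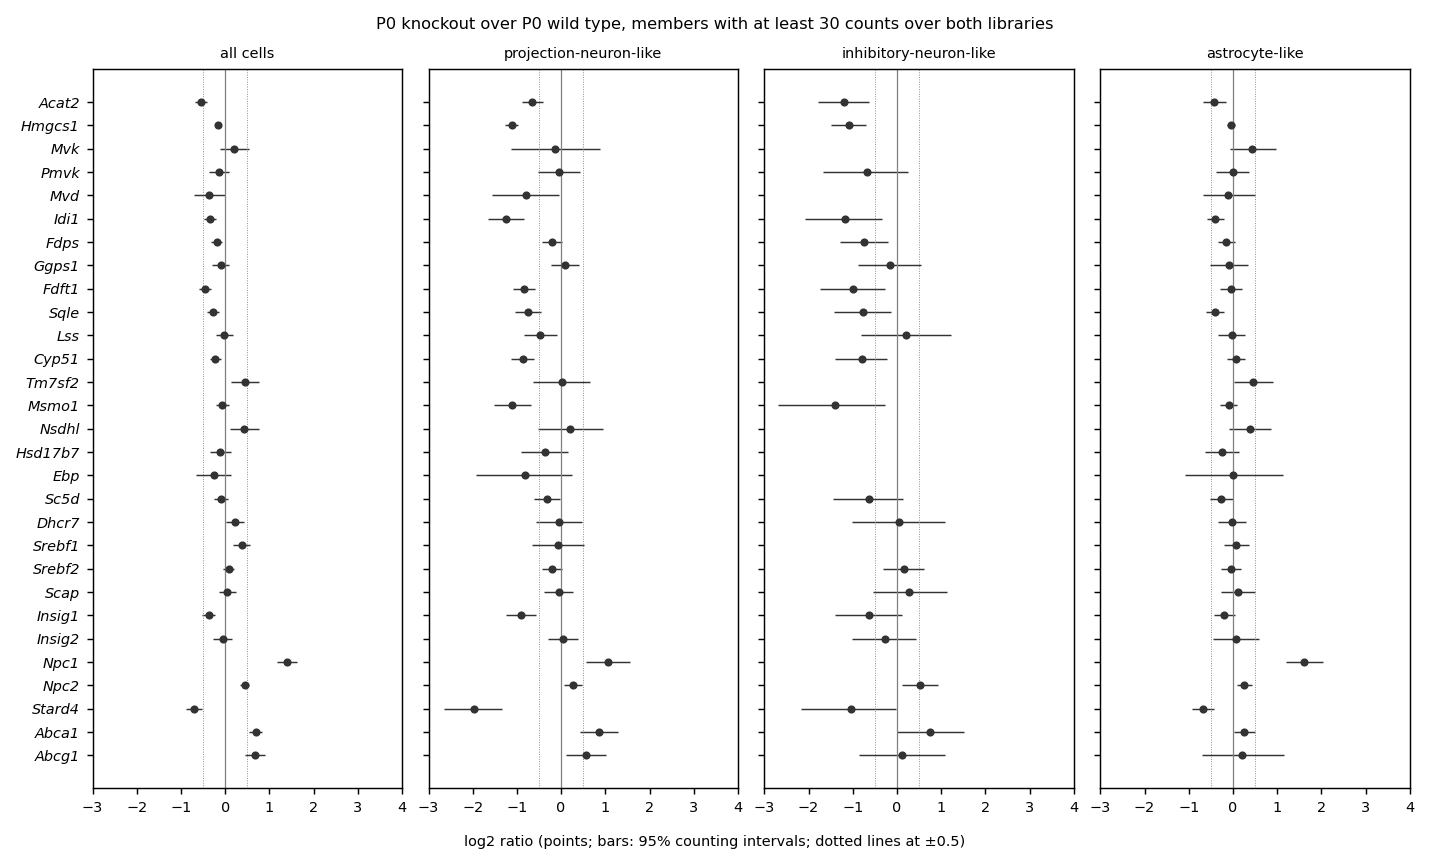
Log2 ratio of P0 knockout to P0 wild type (horizontal axes) for those of the 29 genes with at least 30 counts, over all cells and in 3 gates, with 95% counting intervals and dotted lines at 0.5 either side of 0. In projection-neuron-like cells Stard4 (-1.96), Idi1 (-1.24), Hmgcs1 (-1.12) and Msmo1 (-1.10) lie farthest to the lower side, and Npc1 (1.06) and Abca1 (0.86) farthest to the higher side.

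Counted cell by cell, the lower synthesis level was also visible at equal depth. With each projection-neuron-like cell thinned to 1500 counts, the mean number of synthesis counts was 2.34 in P0 wild type and 1.56 in P0 knockout, and the 90th percentile was 5 and 3. The share of cells with no synthesis count was 19% (15.4 to 23.0%, exact binomial) in wild type and 21.7% (17.9 to 25.9%) in the knockout, intervals that overlap. In projection-neuron-like cells with Tbr1, Bcl11b or Fezf2, factors of deep layers (281 cells of wild type, 315 of knockout), the synthesis sum ratio was -0.58 (-0.66 to -0.49).

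Inhibitory-neuron-like cells showed the same direction at P0. Their synthesis sum was 764 CPM in P0 knockout and 1308 CPM in P0 wild type, a log2 ratio of -0.78 (-0.95 to -0.60). Of the 13 enzymes with at least 30 counts (6 of the 19 had too few), 10 were lower, against 12.1% of the 6633 genes tested, and the median was -0.77 beside 0.02 over all genes. Hmgcs1 was 418, 355, 285 and 133 CPM in the library order above, with a P0 ratio of -1.09 (-1.50 to -0.70). Idi1 was 66.7, 60.5, 68.7 and 30.2 CPM (-1.18, -2.09 to -0.34). Msmo1 was 41.5, 59.9, 42.5 and 16.0 CPM (-1.41, -2.69 to -0.27). In each of the 3, P0 knockout was below all other libraries.

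Acat2 was 108, 105, 150 and 65.7 CPM in these cells (P0 ratio -1.19, -1.79 to -0.63). Fdps, the farnesyl diphosphate synthase, was 62.3, 108, 137 and 81.7 CPM (-0.75, -1.30 to -0.21), so that E14.5 wild type was the lowest. Fdft1 was 71.1, 106, 88.3 and 44.4 CPM (-0.99, -1.74 to -0.28), Cyp51 135, 130, 118 and 67.5 CPM (-0.80, -1.41 to -0.22) and Sqle 80.0, 98.3, 99.8 and 58.6 CPM (-0.77, -1.42 to -0.13). Insig1 was 44.5, 53.6, 68.7 and 44.4 CPM, a P0 ratio of -0.63 whose interval (-1.40 to 0.12) includes 0. Npc2 was 169, 202, 155 and 222 CPM, higher in P0 knockout by 0.52 (0.12 to 0.92), and Abca1 35.6, 21.0, 42.5 and 71.1 CPM, a ratio of 0.74 (-0.01 to 1.51). Stard4 was 13.3, 29.4, 44.2 and 21.3 CPM with a ratio of -1.05 (-2.17 to -0.02), which lay between -4.07 and -0.16 under other gate and depth settings and has no firm size. Cells with Lhx6, of medial origin (45 and 27 cells), had a synthesis sum ratio of -0.95 (-1.32 to -0.60). Those with Sp8 and no Lhx6 (56 and 68 cells) had a ratio of -0.66 (-0.89 to -0.43). At 1500 counts per cell the mean number of synthesis counts was 1.82 in wild type and 1.04 in the knockout.

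Markers of other cells differed between the P0 gates. In projection-neuron-like cells the 8 astrocyte markers summed to 133 CPM in wild type and 183 CPM in the knockout, the radial glia markers to 265 and 380 CPM, the oligodendrocyte precursor markers to 27.8 and 16.4 CPM, the erythroid markers to 984 and 403 CPM and the microglia markers to 3.04 and 11.3 CPM. In inhibitory-neuron-like cells the astrocyte markers summed to 55.6 and 147 CPM, the oligodendrocyte precursor markers to 37.6 and 252 CPM, and the erythroid markers to 1452 and 267 CPM. All 8 markers of the astrocyte, radial glia, precursor and microglia lists were detected over all cells of the P0 libraries, and 6 of the erythroid list. Their part in the neuronal results was not tested.

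In astrocyte-like cells the enzymes differed little between the P0 libraries. Their sum was 3696 CPM in the knockout and 3982 CPM in wild type, a log2 ratio of -0.11 (-0.16 to -0.06), and 0 of 19 were higher and 0 lower by 0.5, against 13.7% and 8.93% of the 10183 genes tested. Hmgcs1 was 1353 CPM in wild type and 1311 CPM in the knockout (-0.05, -0.13 to 0.04), an interval that excludes the ratio seen in projection-neuron-like cells. Idi1 was 334 and 253 CPM (-0.40, -0.59 to -0.21), Sqle 274 and 206 CPM (-0.41, -0.62 to -0.20) and Acat2 190 and 142 CPM (-0.42, -0.67 to -0.16). Msmo1 (296 and 276 CPM), Cyp51 (264 and 276 CPM) and Fdft1 (176 and 170 CPM) were close. Tm7sf2, a sterol reductase, was higher in the knockout by 0.46 (0.03 to 0.91). The sums thus differed by far less than in neuron-like cells, and Idi1, Sqle and Acat2 were lower past counting error by less than 0.5.

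Npc1 had the highest ratio of the 29 genes in astrocyte-like cells: 48.7 CPM in P0 wild type and 148 CPM in P0 knockout, a log2 ratio of 1.60 (1.19 to 2.03). Npc2 was 321 and 384 CPM (0.26, 0.08 to 0.44), Abca1 185 and 220 CPM (0.26, 0.02 to 0.49) and Stard4 207 and 130 CPM (-0.67, -0.93 to -0.42). Stard4 was lower and Npc1 higher in the knockout in astrocyte-like and in projection-neuron-like cells alike. Srebf1 (131 and 138 CPM), Srebf2 (232 and 225 CPM), Insig1 (211 and 184 CPM) and Insig2 (42.7 and 44.6 CPM) had intervals that included 0. Over all cells Npc1 was 31.3, 37.6, 32.5 and 85.6 CPM in the 4 libraries (P0 ratio 1.40, 1.17 to 1.63), with P0 knockout above the rest. In this gate the microglia markers summed to 2.56 CPM in wild type and 24.6 CPM in the knockout, and their part in the result was not tested.

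In oligodendrocyte-precursor-like cells, of which P0 wild type held 52, the synthesis sum was 2315 CPM in the knockout and 2472 CPM in wild type (-0.09, -0.22 to 0.03). Of 16 enzymes with enough counts 2 were higher and 4 lower, against 17.7% and 10.5% of the 7314 genes tested. Mvk, the mevalonate kinase, was 58.3 CPM in wild type and 26.3 CPM in the knockout (-1.15, -2.12 to -0.17), and Pmvk, the next kinase, 74.5 and 41.8 CPM (-0.84, -1.64 to -0.01). Sc5d was 77.8 and 124 CPM (0.67, 0.02 to 1.38). Stard4 was 136 and 68.0 CPM (-1.0, -1.60 to -0.39), the same direction as in the other gates, but the ratio was 0.00 with cells thinned to 1500 counts, where the synthesis sum ratio was 0.21. Npc1 was 107 and 129 CPM (0.27, -0.30 to 0.88). A single cell held 20% of the Idi1 counts of the wild-type gate, so the Idi1 ratio of -0.52 (-0.93 to -0.12) leans on few cells. Precursor-like cells thus gave no common direction for the enzymes.

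At E14.5 the library labelled knockout, which had Tsku counts, differed from wild type by gene and by gate. Over all cells the synthesis sum was 1427 CPM against 1488 CPM, a log2 ratio of -0.06 (-0.10 to -0.02), with 0 of 19 enzymes higher and 0 lower by 0.5, where 13.4% and 13.3% of 14134 genes were. Hmgcs1 was 449 CPM in wild type and 332 CPM in the library labelled knockout (-0.44, -0.51 to -0.37). Srebf1 was 28.5 and 42.5 CPM (0.58, 0.32 to 0.84) and Stard4 31.5 and 45.5 CPM (0.53, 0.29 to 0.78), so Stard4 was on the other side of 0 from its P0 ratio. Sqle was 104 CPM in both libraries.

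In projection-neuron-like cells at E14.5 the synthesis sum ratio was -0.19 (-0.24 to -0.13), with 2 enzymes higher and 2 lower of 19, against 16.7% and 10.8% of 10753 genes. Hmgcs1, at 480 CPM in wild type and 317 CPM in the library labelled knockout, had a ratio of -0.60 (-0.71 to -0.49), and Acat2, at 149 and 101 CPM, of -0.56 (-0.76 to -0.36). Sc5d was on the other side, 61.4 and 87.2 CPM (0.50, 0.23 to 0.79). Scap was 56.2 and 36.6 CPM (-0.62, -0.95 to -0.28), beside a P0 ratio of -0.05. Idi1 was 59.3 and 42.2 CPM (-0.49, -0.80 to -0.17), just short of the threshold. Msmo1 and Insig1, which were lower at P0, were 61.0 and 55.2 CPM and 64.1 and 62.1 CPM. The sum was 1689 CPM in wild type and 1485 CPM in the library labelled knockout, and Hmgcs1 and Acat2 together differed by about as much. The ratio of the sum was smaller in size than at P0, over animals that differ in age and in Tsku counts. Markers of other cells differed here too: from wild type to the library labelled knockout, erythroid markers summed to 153 and 1042 CPM, choroid plexus markers to 56.2 and 348 CPM, inhibitory neuron markers to 11.3 and 84.7 CPM and astrocyte markers to 111 and 66.0 CPM, and their part in the result was not tested.

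In the radial glia and astrocyte-like gates joined, the E14.5 sum was 1823 CPM in the library labelled knockout and 2332 CPM in wild type, a log2 ratio of -0.36 (-0.45 to -0.26). There 3 of 17 enzymes were higher and 5 lower, against 24.1% and 16.4% of 9052 genes. In wild type and in the library labelled knockout Hmgcs1 was 889 and 475 CPM (-0.90, -1.06 to -0.74) and Idi1 211 and 145 CPM (-0.54, -0.86 to -0.22), both lower, and Sc5d was 63.2 and 100.0 CPM (0.67, 0.14 to 1.23), higher. Most of the difference in the sum lay in Hmgcs1 and Idi1. Scap was 86.7 and 52.7 CPM (-0.72, -1.23 to -0.19). The joined gate was made up differently in the 2 libraries, with 31 radial glia and 24 astrocyte-like cells in wild type and 398 and 99 in the library labelled knockout. The synthesis sum was 2176 and 1770 CPM in the radial glia gate alone and 2490 and 2043 CPM in the astrocyte gate alone, lower in the library labelled knockout in both.

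Intermediate-progenitor-like cells (Eomes or Neurog2 with other markers; 50 and 404 cells) went the other way. Their sum was 1399 CPM in the library labelled E14.5 knockout and 1088 CPM in wild type, a ratio of 0.36 (0.22 to 0.51), and 6 of 16 enzymes were higher, against 21.2% of 7885 genes. In wild type and then the library labelled knockout, Idi1 was 41.3 and 98.9 CPM (1.26, 0.55 to 2.04), Cyp51 60.9 and 131 CPM (1.10, 0.52 to 1.74), Fdft1 60.9 and 111 CPM (0.86, 0.27 to 1.5) and Fdps 60.9 and 102 CPM (0.74, 0.15 to 1.39). Mvk had 2 counts in wild type and 34 in the library labelled knockout, a log2 ratio of 2.64 (0.67 to 5.74) that rests on those 2 counts. Npc1 was 13.1 and 42.3 CPM (1.69, 0.48 to 3.2), and Acat2 was lower, 141 and 94.1 CPM (-0.59, -1.04 to -0.13).

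In inhibitory-neuron-like cells the E14.5 sum ratio was 0.05, with 5 of 19 enzymes higher against 19.9% of 8809 genes. Fdps was 62.3 CPM in wild type and 108 CPM in the library labelled knockout (0.79, 0.31 to 1.31), Fdft1 71.1 and 106 CPM (0.58, 0.12 to 1.06) and Stard4 13.3 and 29.4 CPM (1.14, 0.12 to 2.34). In this gate erythroid markers summed to 4012 and 691 CPM, choroid plexus markers to 75.6 and 159 CPM and projection neuron markers to 38.5 and 222 CPM. In intermediate-progenitor-like cells erythroid markers summed to 100 and 402 CPM and choroid plexus markers to 74.0 and 164 CPM, and their part was not tested in either gate. No direction was common to the gates at E14.5. The synthesis sum was lower in the library labelled knockout in projection-neuron-like and radial glial or astrocyte-like cells. These lower sums rested mostly on Hmgcs1, with Acat2 in projection-neuron-like cells and Idi1 in the glial gates. The sum was higher in intermediate-progenitor-like cells and at a ratio of 0.05 in inhibitory-neuron-like cells.

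Between E14.5 and birth in the wild-type libraries, synthesis genes were higher over all cells and in astrocyte-like cells, and differed little in projection-neuron-like cells. For whole libraries the sum ratio was 0.46 (0.42 to 0.50), with 7 of 19 enzymes higher by 0.5 against 17.5% of 13261 genes. The intervals of 16 lay above 0, but the share of all genes with such an interval was not computed. Msmo1 was 59.8 CPM at E14.5 and 114 CPM at P0 (0.93, 0.74 to 1.13), Idi1 72.7 and 134 CPM (0.88, 0.71 to 1.06) and Hmgcs1 449 and 588 CPM (0.39, 0.32 to 0.47). Insig1 was 55.0 and 118 CPM (1.10, 0.91 to 1.30) and Stard4 31.5 and 90.6 CPM (1.52, 1.28 to 1.78). The astrocyte markers summed to 536 CPM at E14.5 and 2019 CPM at P0, and choroid plexus markers to 10383 and 3.65 CPM. Their part in the ratios over all cells was not tested. With cells thinned to 1500 counts the sum ratio was 0.24.

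Within the radial glia and astrocyte-like gates together, 13 of 18 enzymes were higher at P0 than at E14.5 in wild type, against 23.3% of 8637 genes, and 0 were lower. The sum ratio was 0.66 (0.57 to 0.75). Hmgcs1 was 889 and 1238 CPM (0.48, 0.33 to 0.63), Sqle 119 and 255 CPM (1.10, 0.71 to 1.5) and Insig1 81.3 and 207 CPM (1.35, 0.89 to 1.83). Abca1 was 37.9 and 164 CPM (2.11, 1.46 to 2.83) and Stard4 70.5 and 196 CPM (1.48, 0.99 to 2.00). At E14.5 this joined gate was made of 31 cells of the radial glia gate and 24 of the astrocyte gate, and at P0 of 21 and 176, so its makeup moved with age. The synthesis sum was 2490 CPM at E14.5 and 3982 CPM at P0 in the astrocyte gate alone, and 2176 and 1677 CPM in the radial glia gate alone, the other direction. Each of these gates held fewer than 50 cells in at least 1 library, and what the change of makeup adds to the joined ratios was not tested.

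In projection-neuron-like cells the wild-type sum ratio was 0.02 (-0.04 to 0.09), with 1 enzyme higher and 2 lower of 19, against 19.1% and 11.8% of 9933 genes, and Hmgcs1 was 480 and 462 CPM. Abca1 was 6.10 and 30.9 CPM (2.34, 1.5 to 3.28) and Stard4 24.4 and 42.6 CPM (0.80, 0.32 to 1.30). Inhibitory-neuron-like cells had a synthesis sum ratio of -0.06, and Abca1 there was 35.6 (22.8 to 52.9) CPM at E14.5 and 42.5 (27.8 to 62.3) CPM at P0, intervals that overlap.

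The knockout-labelled libraries differed with age in opposite directions by gate. In projection-neuron-like cells the synthesis sum ratio of P0 to E14.5 was -0.47 (-0.54 to -0.41), with 11 of 19 enzymes lower against 20.6% of 10866 genes, and in inhibitory-neuron-like cells -0.88 (-1.03 to -0.73), with 12 of 18 lower against 21.7% of 8781 genes. In the radial glia and astrocyte-like gates it was 0.91 (0.85 to 0.97), with 15 of 19 higher against 27.6% of 10781 genes. That joined gate held 398 radial glia and 99 astrocyte-like cells at E14.5 and 40 and 315 at P0. The astrocyte gate alone had a synthesis sum of 2043 and then 3696 CPM, and the radial glia gate alone of 1770 and then 1476 CPM, the other direction. Over all cells 5 of 19 were higher against 26.5% of 14713 genes. Hmgcs1 was 317 and 212 CPM in projection-neuron-like cells (-0.58, -0.72 to -0.43) and 475 and 1209 CPM in the glial gates (1.35, 1.24 to 1.46). Npc1 was 29.6 and 135 CPM in the glial gates (2.18, 1.76 to 2.63), and Abca1 6.94 and 55.8 CPM in projection-neuron-like cells (3.01, 2.47 to 3.58). This age comparison shares the P0 knockout library with the P0 comparison, and its wild-type counterpart shares P0 wild type, so they are not separate evidence.

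**Figure D4:**
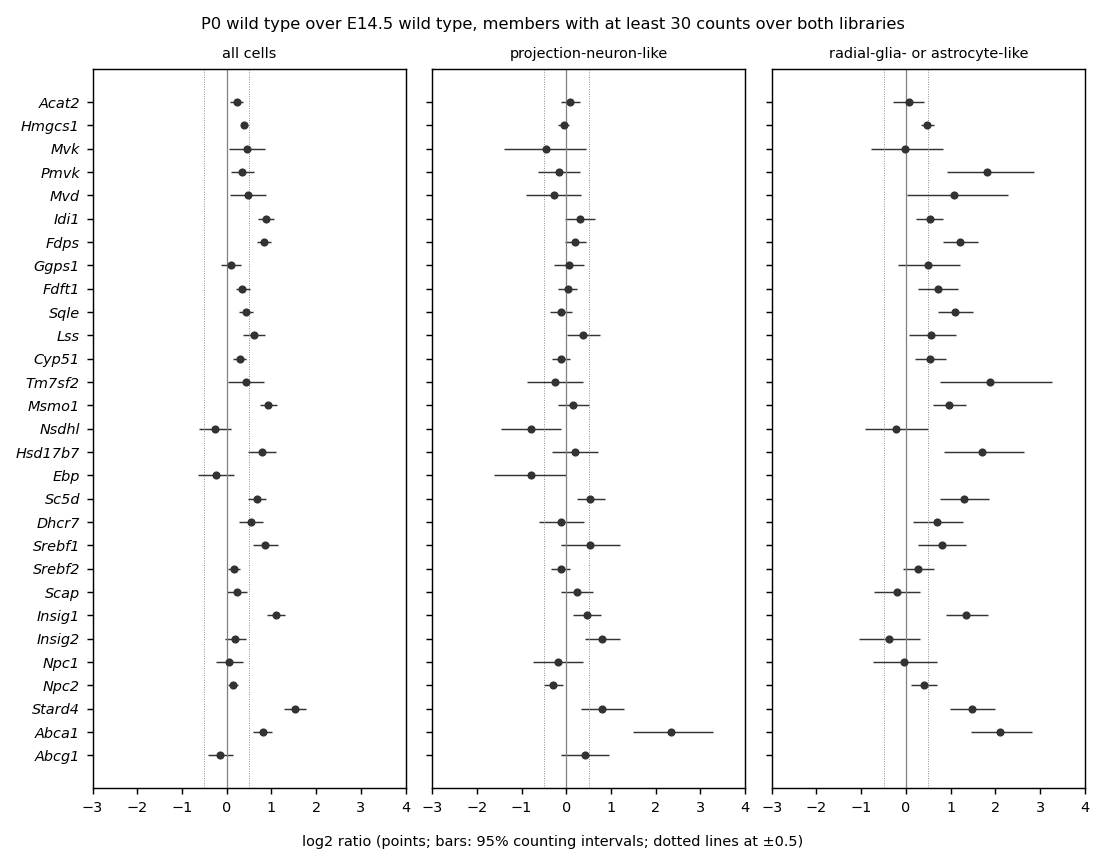
Log2 ratio of P0 wild type to E14.5 wild type (horizontal axes) for those of the 29 genes with at least 30 counts, over all cells, in projection-neuron-like cells and in the joined radial glia and astrocyte-like gates, with 95% counting intervals. Hmgcs1 lies at -0.05 in projection-neuron-like cells and 0.48 in the joined glial gates, and Abca1 lies to the higher side in both (2.34 and 2.11).

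A further list held 15 genes of cholesterol handling, among them carriers, receptors, liver X receptors, a lipase and genes of esterification. Of these, 14 were measured over all cells at P0. In the knockout 1 was higher and 0 lower, against 13.0% and 5.87% of all genes. That gene was Apoe, which encodes the main apolipoprotein of the brain, at a log2 ratio of 1.20 (1.14 to 1.25), followed by the receptor Lrp1 (0.48, 0.37 to 0.59) and the lysosomal lipase Lipa (0.47, 0.25 to 0.70). In astrocyte-like cells 4 of 13 were higher and 1 lower, against 13.7% and 8.93%, with Apoe at 0.93 (0.85 to 1.00) and Mylip, which marks lipoprotein receptors for breakdown, at -0.88 with an interval of -1.91 to 0.15 that includes 0. In projection-neuron-like cells 1 of 12 was higher and 1 lower, against 8.25% and 8.21%, and Apoe was at 1.42 (0.77 to 2.12). Astrocyte and microglia markers were also higher in the knockout in this gate, as were microglia markers in astrocyte-like cells. Over all cells, astrocyte-like cells made up 16.9% of P0 wild type and 22.0% of P0 knockout, and microglia 2.01% and 3.15%. The part of these markers and shares in the Apoe ratios was not tested. Of 11 genes of fatty acid synthesis and desaturation, 0 were higher and 0 lower over all cells (all genes 13.0% and 5.87%), with the desaturase Scd2 at 0.44 (0.39 to 0.48). In projection-neuron-like cells 0 were higher and 1 lower (all genes 8.25% and 8.21%), Acss2, an acetyl-CoA synthetase, at -0.77 with an interval of -1.73 to 0.15. The summed ratio of the fatty acid genes there was -0.12, beside -0.68 for the cholesterol enzymes. Over all cells the sum of the fatty acid genes was 2655 CPM in P0 knockout and 2147 CPM in P0 wild type. In astrocyte-like cells it was 5975 and 4854 CPM, so it was higher in the knockout in both.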

How the data were processed

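The deposited values are raw counts of transcripts per gene and cell barcode, 1 matrix per library, made by the authors from cells captured with the Asteria kit, with 15000 cells as input per sample, per the labels' protocols. The submitters' processing notes name the build GRCm39, R 4.3.2, Seurat 5 and FastQC 0.12.1, with no aligner, counter or annotation (not given in the sources used here). A barcode was kept with 500 counts or more, 300 genes or more and no more than 10% mitochondrial counts (620, 4107, 1047 and 1436 of 622, 4119, 1073 and 1456 barcodes). Scrublet in scanpy 1.11.5 called 2, 0, 3 and 6 doublets, under 0.5% of each library, and these were taken out, leaving 618, 4107, 1044 and 1430 cells; at so low a share most doublets were probably not caught. Each cell with at least 1500 counts was thinned to 1500 counts with a fixed seed, and entered the gate whose 8 markers it showed most of, with at least 2 markers and more than any other list. Neuron gates also needed more than the radial glia list, and the radial glia gate at least 3 markers.

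Full counts were summed per library and gate and scaled to CPM. A log2 ratio is that of 2 sums, with a 95% interval from the conditional binomial distribution, for genes that reached 30 counts in the pair of sums, in gates of at least 50 cells in both libraries; a gene counts as higher or lower from 0.5. Enzymes, regulators, carriers and exporters were kept apart. Values in every library are given for members past 0.5 with an interval that excludes 0 in a genotype comparison, and for Hmgcs1, Sqle, Idi1, Insig1, Insig2, Srebf1, Srebf2, Npc1, Npc2, Abca1 and Abcg1. The members and lists were chosen with earlier results of these data known, among them the lower synthesis in the projection neurons of P0 knockout, so they are no independent support for it. The joined radial glia and astrocyte gate, the splits of neurons, the leaving out of the Nhlh2 type and TMM scaling of gates (edgeR 4.0.16, used for scaling factors alone) were added after seeing the data. One subset of the projection neurons is not reported here. The computation was tested on simulated counts. The software was R 4.3.3 and Python 3.11.15 with pandas 2.3.3, scipy 1.17.1, numpy 2.4.6 and matplotlib 3.10.9.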

Additional observations from a re-analysis of the deposited data

Results flagged for a closer look

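In 4 genes and 1 group the ratio of knockout label to wild type over all cells had opposite signs at P0 and E14.5, each with an interval that excluded 0. Fdft1 was at -0.45 at P0 and 0.28 at E14.5, and Fdps at -0.19 and 0.20. Insig1 was at -0.37 and 0.26, and Stard4 at -0.70 and 0.53. The 2 exporters together were at 0.68 and -0.19. The difference between ages was not tested, since each library is 1 animal, and the library labelled E14.5 knockout held Tsku counts. The E14.5 value of the exporters was 0.30 without the cells of highest doublet score, so its sign rests on those cells.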

How the results depend on the processing

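No paired analysis was possible because each group holds 1 sample. Under an alternative, a ratio stayed if it lay within the reported interval, a count if within 1.5 times, and a median if within a fixed difference. Of the synthesis sum ratios, the promoter counts and the counts of enzymes lower in P0 neuron gates, 90 values stayed and 37 moved. Of the other values (single genes, export sums, medians and other counts) 1708 stayed, 188 moved and 7 changed sign. For ratios between libraries, a changed sign was recorded only where the reported interval excluded 0. The cause was not tested. At P0 the synthesis ratio over all cells (-0.18) was -0.23 with TMM scaling. With gates set at 750 counts it was -0.76 in projection-neuron-like, -1.20 in inhibitory-neuron-like, -0.05 in astrocyte-like and -0.26 in precursor-like cells. With cells thinned to 1500 counts it was -0.58 in projection-neuron-like and 0.21 in precursor-like cells, and there the median of the enzymes was 0.22 and Stard4 0.00, where both had been below 0. At E14.5 the ratio over all cells was -0.13 without the highest doublet scores and -0.12 with TMM scaling, and the export ratio turned to 0.30 without those scores. The projection-neuron-like ratio was -0.27 and the glial one -0.45 with TMM scaling, the glial one -0.57 when thinned, and the progenitor ratio 0.21 with a lead of 2 markers. With age in wild type the ratio over all cells was 0.40 without the highest doublet scores, 0.24 thinned (where Sqle was -0.06), 0.35 with every cell weighted alike and 0.39 with TMM scaling. It was -0.10 thinned and -0.07 with TMM scaling in projection-neuron-like cells, 0.12 (median 0.31) with gates at 750 counts in inhibitory-neuron-like cells, and 0.40 thinned in glial cells, with Cyp51 at -0.08. With age in the knockout label it was 0.17 thinned, 0.19 with cells weighted alike (Cyp51 -0.01) and 0.26 with TMM scaling over all cells, -0.54 thinned in projection-neuron-like cells, -1.11 with gates at 750 counts and -1.04 thinned in inhibitory-neuron-like cells, and 0.85 thinned in glial cells. Astrocyte-like over other cells was 1.28 with gates on full counts and 1.41 thinned in P0 wild type, and 1.56 with gates on full counts in P0 knockout. Projection-neuron-like over other cells was -0.25 with gates at 750 counts and -0.26 with a lead of 2 markers in P0 wild type, and -0.88 and -0.85 in P0 knockout. In a window of 100 bases before to 50 after the start, 8 of 16 enzymes held the GC box, against 31.5% of all genes. There 0 enzymes held the sterol core, against 1.66% of all genes. Counts of enzymes past 0.5 moved by over 1.5 times in several comparisons. In P0 precursor-like cells those higher numbered from 0 to 5, beside 2. In E14.5 projection-neuron-like cells those higher numbered up to 6 and those lower up to 4, beside 2 and 2, in inhibitory-neuron-like cells those higher were as few as 3, beside 5, and in glial cells those lower to 2, beside 5. With age over all cells, those higher numbered from 4 to 8 in wild type, beside 7, and from 3 in the knockout label, beside 5.

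Low depth limits single enzymes in the smaller gates: 6 of 19 had too few counts in inhibitory-neuron-like cells at P0.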
